A study of Bos taurus with 6 samples.

Results

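TGF-beta, activin and BMP signalling with its pseudoreceptor BAMBI was examined in 8-cell bovine embryos. The gene set has 36 members, chosen by symbol. They are 8 ligands, 1 extracellular antagonist, 5 type I and 4 type II receptors, 1 co-receptor, BAMBI, 8 SMADs, 5 regulators of SMADs and 3 BMP target genes. All 36 symbols were found once each among the 18862 genes of the files, of which 33 are annotated there to the KEGG term for TGF-beta signaling and SKI, SKIL and TGFBR3 are not. The study asked how transcription responds when histone lactylation is lowered in embryos made by in vitro fertilisation. RNA was amplified with the SMART-Seq v4 kit and sequenced in 6 libraries. The control group (3 libraries) was cultured without GSKA, and the GSKA group (3 libraries) with 200 pmol/L GSKA, an inhibitor of lactate dehydrogenase A. The medium of both groups held the same amount of DMSO, the solvent of GSKA, and neither group carries a transgene or deletion that the labels name. The labels give the tissue as female and the cell type as embryo, and class the libraries as single-cell RNA, but each holds 1 value per gene, and the sources used here do not give the number of embryos or cells behind it. The replicates are described as biological in the study, without word of whether each was a culture of its own, and p-values measure the spread between these samples.

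Ligands of this family bring together type II and type I receptor kinases, and the type I receptor then phosphorylates SMAD proteins, which enter the nucleus with SMAD4. TGF-beta, activin and NODAL act mainly through SMAD2 and SMAD3, whereas BMPs act mainly through SMAD1, SMAD5 and SMAD9. BAMBI resembles a type I receptor but lacks the kinase, and it lowers signalling of both branches in the systems where it was studied. In mammalian embryos the family is known for its part in the specification of the first lineages and of the germ layers.

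Levels were given as FPKM, the fragments of a gene scaled to its transcript length and to the mapped fragments of its library, so different genes can be set side by side. Depth is unknown because FPKM holds no counts. Differences were tested with limma on log2(FPKM + 1), and "log2 difference" below means GSKA minus control on that scale, which understates the change of low genes. The test took in the 10654 genes that reached 1 FPKM in 3 or more libraries, and a gene was called at an adjusted p under 0.05 over all of them. The sum of FPKM was 497035 to 581839 per library, and 14295 to 15370 genes were above 0. Control replicate 1 stood apart, with 13.2% of its FPKM in mitochondrially encoded genes against 5.31% to 7.26% in the other 5 libraries. Of 17 oocyte and 8-cell embryo markers 15 were in the files, each with a mean of at least 1, and their sums overlapped, at 2575 to 3440 in control and 3088 to 4047 in GSKA libraries. One of them, KHDC3L, was called higher in GSKA (log2 difference 1.46, adjusted p = 0.0348 by limma), and GDF9, ZP2 and H1-8 were higher with no overlap but did not pass the test. Over all tested genes, 0.225% were called higher, and the groups did not overlap for 12.9% higher and 6.45% lower. Summed levels did not overlap for cumulus and sperm markers, from 39.9 to 56.3 (control) and 70.1 to 81.4 (GSKA) for 11 of 14 cumulus markers and from 0 to 0.872 and 5.35 to 7.76 for 4 of 6 sperm markers. Most of the cumulus sum came from STAR and TNFAIP6, which each separated the groups but did not pass the test. STAR had 20.1 to 40.3 in control and 43.5 to 50.6 in GSKA libraries, and TNFAIP6 had 4.31 to 11.3 and 15.2 to 16.6. CYP19A1 did not exceed 0.131 and INHA 0.0896 in any library. KRT18 of the same list had 1.09 to 1.69 in control and 0 to 0.719 in GSKA libraries. AMH and INHBA also had lower means in GSKA. Of the sperm markers, PRM1, TNP1 and ODF1 were at 0 in all controls. TNP2 had 0 to 0.872 in control and 1.31 to 5.13 in GSKA libraries but did not pass the test. The blood markers found, 4 of 6, overlapped at 7.05 to 15.1 in control and 2.33 to 7.75 in GSKA libraries, as did 7 of 8 trophectoderm markers at 67.5 to 163 and 46.8 to 71.2. Most of the latter sum was TFAP2C, at 52.3 to 141 in control and 32.8 to 50.3 in GSKA libraries (adjusted p = 0.224 by limma). TFAP2A, not tested, was also lower with no overlap, at 0.511 to 1.17 against 0.130 to 0.414. GATA3 was higher with no overlap, at 4.94 to 5.25 against 5.73 to 9.50 (adjusted p = 0.667 by limma). CDX2, GATA2, KRT8 and ELF5 overlapped. Within an embryo library, fewer cells with a transcript and less of it per cell cannot be told apart.

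Few of the members had high transcript levels. By mean FPKM over the 6 libraries, 7 members lay at 10 or more, namely ID3, BMP4, ID2, BAMBI, SMAD2, ID1 and TGFBR1. Another 16 members lay from 1 to 10, 5 lay from 0.5 to 1 and 8 lay below 0.5. Each library had 29 to 34 members above 0 and 20 to 24 at 1 or more. Of the 36 members, 21 passed the filter on low values and 15 did not. Control libraries spread more than GSKA libraries, with a median coefficient of variation over the 21 tested members of 45.6% against 24.1%.

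**Figure D1:**
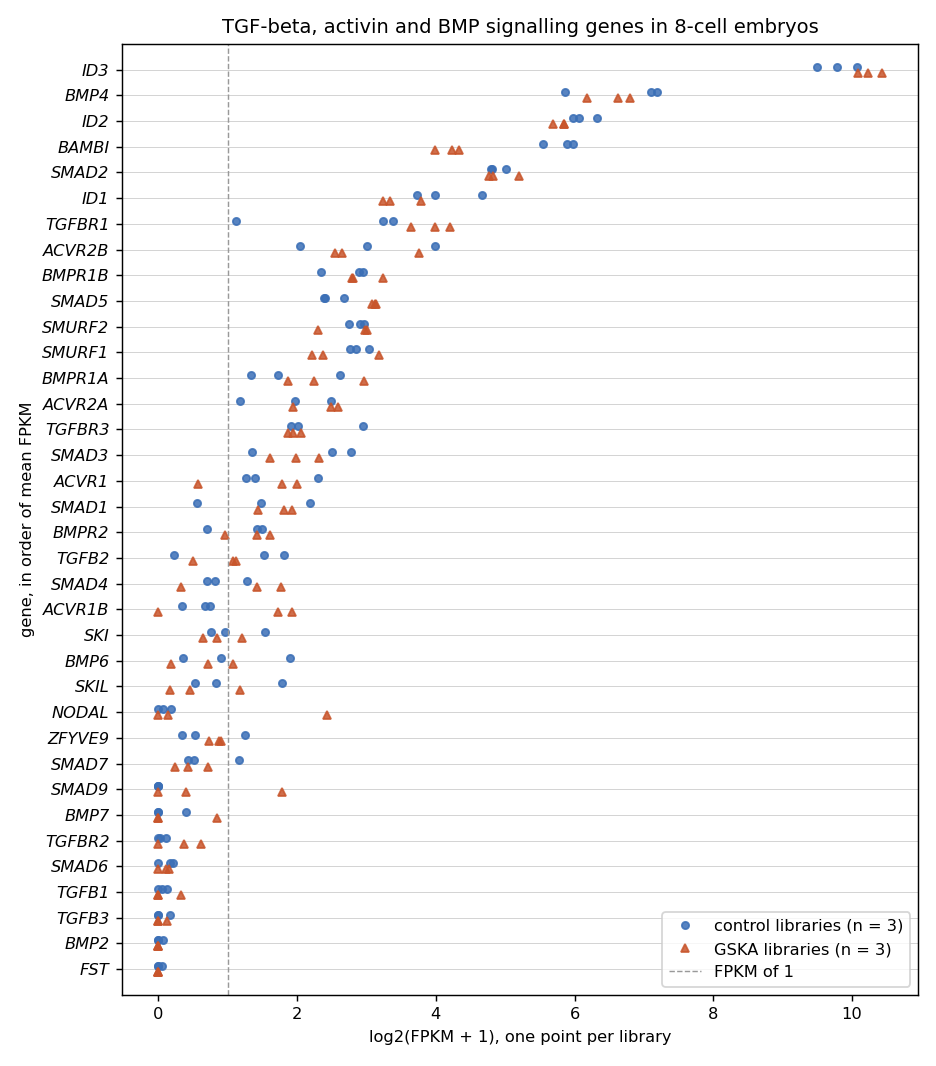
Levels of the 36 members on a log2(FPKM + 1) axis, ordered by mean FPKM, with circles for the 3 control and triangles for the 3 GSKA libraries and a dashed line at an FPKM of 1. ID3 lies at 722 FPKM or more in every library, and BAMBI is the member whose control and GSKA points separate most clearly, at 45.6 to 62.2 against 14.9 to 19.3 FPKM.

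BAMBI fell in the GSKA group, and it was the only member that passed the test. BAMBI (ENSBTAG00000003045) lies on chromosome 13, from 36021693 to 36028577 on the minus strand, in the coordinates of the deposited files, whose genome build the sources used here do not state. Its FPKM was 45.6, 58.5 and 62.2 in control replicates 1 to 3 and 17.9, 19.3 and 14.9 in GSKA replicates 1 to 3. The groups did not overlap, and the lowest control library was above every GSKA library. The mean was 55.4 ± 8.74 (SD, n = 3) in the control group and 17.4 ± 2.22 (SD, n = 3) in the GSKA group, 3.19-fold lower. The log2 difference was -1.62 (SE 0.261, 95% confidence interval -2.18 to -1.05), with an adjusted p of 0.0239 by limma. An exact two-sided permutation test over 3 against 3 libraries cannot go below 0.1, the value BAMBI had. BAMBI was put in the gene set with an earlier result on it known, so this call is not independent support for that result.

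The rank of BAMBI within each library changed as well. It stood at the 90.9 to 93.1 percentile of all genes in control libraries and at the 80.7 to 83.1 percentile in GSKA libraries. Among the 36 members it ranked 3 or 4 in control libraries and 5 in each GSKA library. The direction was the same under all 15 alternative settings, with log2 differences of -1.75 to -1.52, and the call held in 7 of them, with adjusted p-values by limma from 0.0135 to 0.234. It was lost without the filter on low values (adjusted p = 0.234) and without the variance trend (adjusted p = 0.0916). Leaving out control replicate 2 gave an adjusted p by limma of 0.0582 and leaving out control replicate 3 gave 0.0522. Without GSKA replicate 1, 2 or 3 it was 0.140, 0.110 and 0.126, whereas without control replicate 1 the call held (0.0285). The cumulus and sperm sums and the single markers that separated the groups are given above, and their part in the BAMBI result was not tested.

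The genes around BAMBI did not pass the test. Within 1 Mb on either side, a window chosen after the values were seen, the files hold 10 other genes, of which 6 were tested. Their log2 differences were 0.03 to 0.45, the lowest adjusted p by limma was 0.559, and in none did the groups separate. Over all tested genes, 0.225% were called higher and 0.131% lower, and the groups separated for 12.9% higher and 6.45% lower. With 6 genes, finding none lies near those shares. WAC, the nearest tested gene at 39.0 kb, had a log2 difference of 0.11 (95% confidence interval -0.49 to 0.72, adjusted p = 0.899 by limma), and MPP7, at 276 kb, had 0.42 (adjusted p = 0.559).

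**Figure D2:**
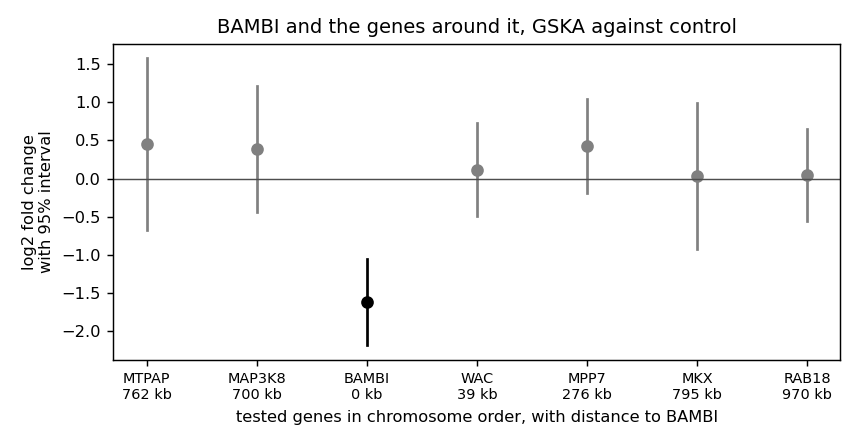
Log2 difference (GSKA minus control, with its 95% confidence interval) of BAMBI and of the 6 tested genes within 1 Mb, in chromosome order at equal spacing with each distance to BAMBI under its name. BAMBI lies at -1.62 and the neighbours lie at 0.03 to 0.45.

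Among the ligands, BMP4 was present at a high level and the others were low or listed at 0. BMP4, a BMP that acts on mesoderm and germ cell formation in the mouse embryo, had FPKM of 57.0, 145 and 137 in control and 111, 98.2 and 71.7 in GSKA libraries. Its groups overlapped, with control replicate 1 the lowest of all 6, and its log2 difference was -0.18 (95% confidence interval -0.90 to 0.54, adjusted p = 0.860 by limma). TGFB2 was the only other ligand tested, with 2.53, 1.89 and 0.173 against 0.414, 1.11 and 1.18 and a log2 difference of -0.29 (adjusted p = 0.832 by limma). NODAL, an inducer of mesendoderm, reached 4.38 in GSKA replicate 1 and was at 0 to 0.131 in the other 5 libraries, so its mean rests on 1 library. BMP6 lay between 0.134 and 2.73 in the 6 libraries. BMP7, TGFB1 and TGFB3 were each listed at 0 in 3 or more libraries, and BMP2 was above 0 only in control replicate 3 (0.0437). The activin-binding antagonist FST was likewise above 0 only in that library, at 0.0368.

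Of the type I receptors, which carry the SMAD-phosphorylating kinase, TGFBR1 differed most. TGFBR1, the receptor for TGF-beta ligands, had FPKM of 1.17, 8.43 and 9.42 in control and 14.9, 17.4 and 11.5 in GSKA libraries. Every GSKA library was above every control library, and control replicate 1 lay far below the other 2 controls. The means were 6.34 ± 4.51 and 14.6 ± 3.00 (SD, n = 3 each), and the log2 difference of 1.37 (SE 0.517, 95% confidence interval 0.25 to 2.49) did not pass the test, with an adjusted p of 0.273 by limma. Without control replicate 1 the difference was 0.64 (adjusted p = 0.578 by limma), so its size rests largely on that library.

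The other type I receptors had overlapping groups. BMPR1B, a BMP receptor, had 6.71, 4.07 and 6.45 in control against 5.97, 8.46 and 5.95 in GSKA libraries (log2 difference 0.22, adjusted p = 0.833 by limma). BMPR1A, the other classical BMP receptor, had 5.14, 2.31 and 1.54 against 2.65, 6.80 and 3.74 (0.46, adjusted p = 0.694). ACVR1, which binds BMPs and activins, had a log2 difference of -0.20 (adjusted p = 0.892). ACVR1B, the receptor for activin and NODAL, was not tested, being at 0.264 to 0.675 in control and at 2.81, 0 and 2.30 in GSKA libraries.

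The type II receptors, which bind ligand and activate type I receptors, gave no separation. ACVR2B, an activin receptor, was the highest of them on average and scattered widely within both groups, with FPKM of 14.9, 7.07 and 3.13 in control and 5.27, 4.84 and 12.5 in GSKA libraries. Its log2 difference was -0.03 (95% confidence interval -1.10 to 1.03, adjusted p = 0.987 by limma), an interval that leaves room for a change of 1 in either direction. ACVR2A, its close relative, had a log2 difference of 0.46 (adjusted p = 0.680), and BMPR2, the BMP type II receptor, had 0.12 (adjusted p = 0.926). TGFBR2, the type II receptor needed for TGF-beta ligands, did not exceed 0.527 in any library and was listed at 0 in 2 of 6. The co-receptor TGFBR3 (betaglycan), which presents TGF-beta to its receptors, had a log2 difference of -0.34 (adjusted p = 0.756 by limma), with 6.72 in control replicate 3 and 2.66 to 3.15 in the other 5 libraries.

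Among the SMADs, SMAD2 was the most abundant and SMAD5 was the one whose groups separated. SMAD2, the activin and NODAL branch effector, had FPKM of 31.3, 27.1 and 26.7 in control and 27.4, 35.8 and 26.1 in GSKA libraries. The log2 difference of 0.06 (95% confidence interval -0.51 to 0.62, adjusted p = 0.948 by limma) was close to 0, and it turned to -0.037 after scaling to a common median and to -0.074 after quantile normalization. SMAD3, of the same branch, lay lower and overlapped, with 1.54, 4.66 and 5.87 against 2.96, 3.98 and 2.05 (log2 difference -0.24, adjusted p = 0.858). SMAD5, a BMP branch effector on chromosome 7, had 5.39, 4.25 and 4.29 in control and 7.43, 7.84 and 7.75 in GSKA libraries. The means were 4.64 ± 0.645 and 7.67 ± 0.211 (SD, n = 3 each). The groups did not overlap, but the log2 difference of 0.63 (SE 0.328, 95% confidence interval -0.08 to 1.34) did not pass the test (adjusted p = 0.438 by limma).

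SMAD1, also of the BMP branch, had 0.475, 3.56 and 1.80 against 1.71, 2.52 and 2.80 (log2 difference 0.31, adjusted p = 0.811 by limma). SMAD9 was listed at 0 in all 3 control libraries and in GSKA replicate 1, and it stood at 0.314 and 2.44 in GSKA replicates 2 and 3. The common partner SMAD4 was low, at 0.754, 0.634 and 1.43 in control and 2.42, 1.67 and 0.251 in GSKA libraries (log2 difference 0.24, adjusted p = 0.861). The inhibitory SMADs were lower still, and neither was tested. SMAD7 had 1.23, 0.433 and 0.343 in control and 0.348, 0.184 and 0.647 in GSKA libraries, and SMAD6 lay at 0 to 0.154.

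The regulators of SMADs gave no call. SMURF2, a ubiquitin ligase that acts on SMADs and receptors, had FPKM of 6.51, 5.70 and 6.79 in control and 7.03, 6.92 and 3.93 in GSKA libraries (log2 difference -0.11, adjusted p = 0.924 by limma). SMURF1, its paralog, had a log2 difference of -0.28 (adjusted p = 0.785). The nuclear co-repressors SKI and SKIL, which bind SMAD complexes, lay at 0.569 to 1.92 and at 0.121 to 2.43. ZFYVE9 (SARA), an endosomal anchor for SMAD2 and SMAD3, had 1.39, 0.444 and 0.268 against 0.825, 0.880 and 0.665. These 3 genes were below the filter.

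None of the BMP target genes passed the test. ID1, ID2 and ID3 encode inhibitors of basic helix-loop-helix factors and are textbook targets of BMP signalling in many cell types. ID3, on chromosome 2, was the most abundant member in every library, with FPKM of 722, 1072 and 881 in control and 1383, 1194 and 1086 in GSKA libraries. Its lowest GSKA library was just above its highest control library, and the means were 891 ± 175 and 1221 ± 151 (SD, n = 3 each). The log2 difference of 0.46 (SE 0.210, 95% confidence interval 0.01 to 0.92) had an adjusted p of 0.358 by limma.

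ID2, on chromosome 11, had its lower values in the GSKA group. Its FPKM was 65.6, 78.8 and 62.0 in control and 56.3, 56.6 and 50.8 in GSKA libraries, again with no overlap, and the log2 difference was -0.32 (95% confidence interval -0.82 to 0.18, adjusted p = 0.584 by limma). ID1, on chromosome 13, had 24.3, 12.2 and 14.8 against 9.16, 12.7 and 8.39, which overlapped, and a log2 difference of -0.67 (95% confidence interval -1.40 to 0.06, adjusted p = 0.414). Each of the 3 kept its direction under all 15 alternative settings. With 1 library left out, ID1 ranged from -0.87 to -0.40, the latter without control replicate 1, ID2 from -0.39 to -0.22 and ID3 from 0.32 to 0.61.

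**Figure D3:**
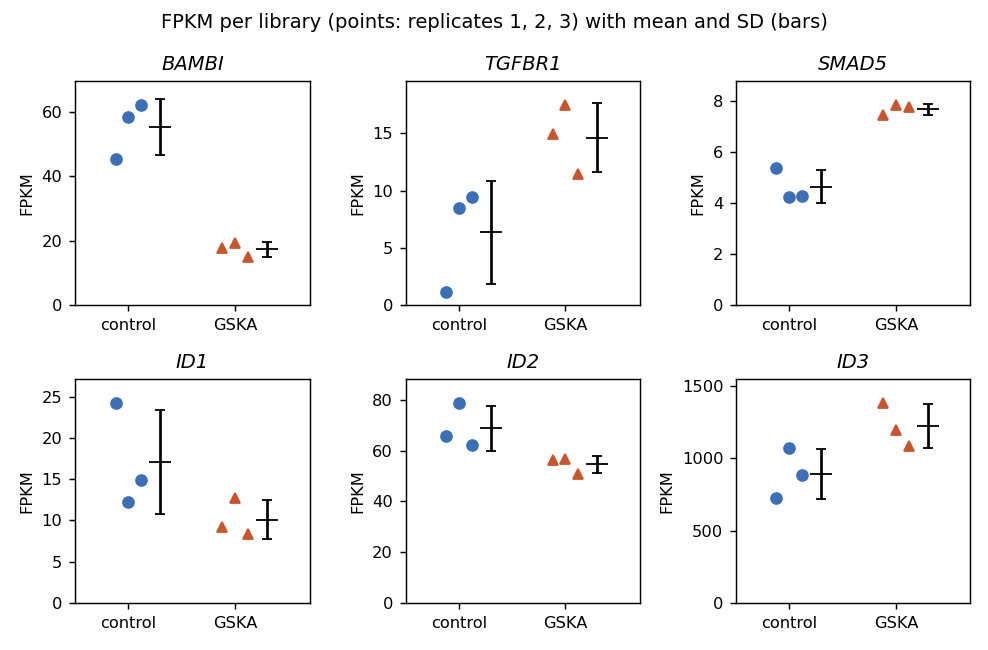
FPKM of BAMBI, TGFBR1, SMAD5, ID1, ID2 and ID3 on linear axes from 0, with a point for each library, a dash for the group mean and bars for the SD (n = 3). BAMBI lies at 14.9 to 19.3 in GSKA libraries against 45.6 to 62.2 in control, while TGFBR1, SMAD5 and ID3 lie higher in every GSKA library than in any control library without passing the test.

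Across the gene set, 0 of the 21 tested members were called higher and 1, BAMBI (4.76%), was called lower, against 0.225% (24 genes) and 0.131% (14 genes) of the 10654 tested genes. BAMBI was put in the gene set with an earlier result on it known, so the member shares are no measure of enrichment. Scaling the libraries to a common median gave 7 genes higher and 14 lower, and quantile normalization gave 14 and 15. At an unadjusted p under 0.05 there were 2 members higher, TGFBR1 and ID3, and 1 lower, BAMBI. Those shares, 9.52% and 4.76%, lie near the shares of all tested genes, 9.4% and 4.03%. The balance depended on the scaling, with 1 member higher and 2 lower (704 and 625 of all tested genes) at a common median and 2 and 2 (746 and 627) after quantile normalization. Groups that did not overlap were found for 3 members higher (14.3%) and 2 lower (9.52%), where the shares over all tested genes were 12.9% and 6.45%. The estimates were higher in GSKA for 10 tested members and lower for 11, and the median log2 difference was -0.03 against 0.09 over all tested genes.

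**Figure D4:**
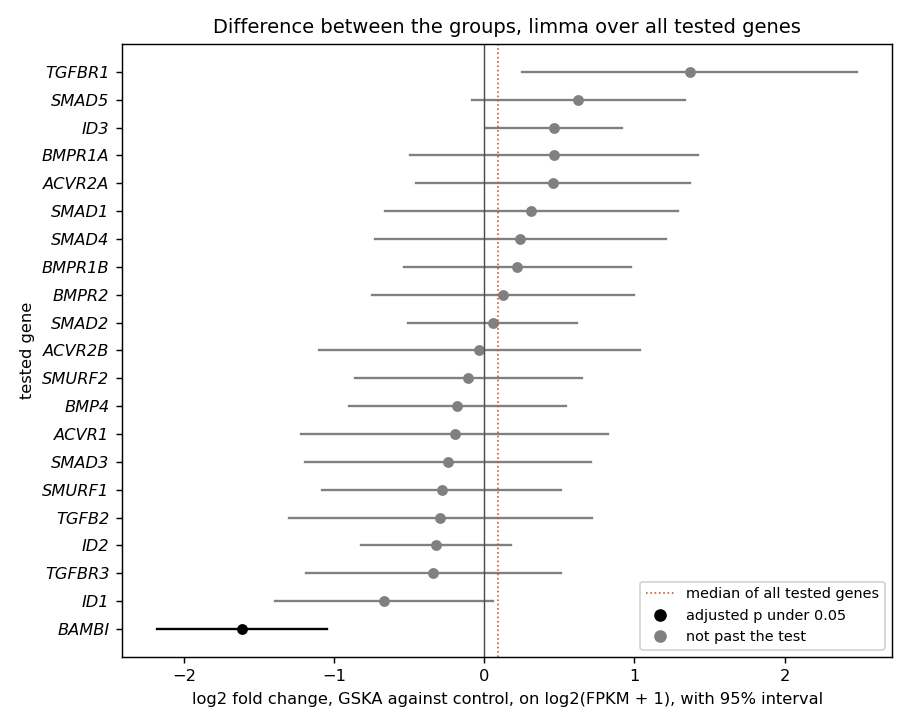
Log2 difference (GSKA minus control) of the 21 tested members with 95% confidence intervals, ordered by size, and a dotted line at the median of all tested genes (0.09). The interval of BAMBI (-2.18 to -1.05, black) belongs to a called gene, and the intervals of TGFBR1 and ID3 lie above 0 before adjustment for the 10654 genes.

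Ratios taken within a library do not depend on its scaling, and they are given as a description with no test. BAMBI relative to BMP4 was 0.402 to 0.800 in control libraries and 0.162 to 0.208 in GSKA libraries. BAMBI relative to SMAD2, whose level hardly differed, was 1.46 to 2.33 and 0.538 to 0.651. Both ratios separated the groups, as BAMBI alone did. ID3 relative to ID2 was 11.0 to 14.2 in control libraries and 21.1 to 24.5 in GSKA libraries, and ID3 relative to ID1 was 29.8 to 87.8 and 93.6 to 151. ID2 relative to ID1 overlapped, at 2.70 to 6.46 and 4.44 to 6.15, so only the ratios with ID3 separated the groups. ID3 made up 70.6% to 73.5% of the summed FPKM of the 36 members in control and 79.6% to 82.3% in GSKA libraries.

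The 5 type I receptors summed to 16.5 to 19.7 FPKM in control and 26.4 to 33.2 in GSKA libraries. Without TGFBR1 they overlapped, at 8.04 to 16.4 and 13.9 to 15.7. The 4 type II receptors overlapped at 9.54 to 18.0 and 9.88 to 19.5. SMAD1, SMAD5 and SMAD9 together reached 5.86 to 7.81 and 9.14 to 13.0, and without SMAD5 they overlapped at 0.475 to 3.56 and 1.71 to 5.23. SMAD2 and SMAD3 together overlapped at 31.8 to 32.8 and 28.2 to 39.8. SMAD5 relative to SMAD2 was 0.157 to 0.172 in control libraries and 0.219 to 0.297 in GSKA libraries. In both groups SMAD2 remained the bulk of the receptor-regulated SMADs, at 68.5% to 80.9% and 63.5% to 71.0% of their sum.

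**Figure D5:**
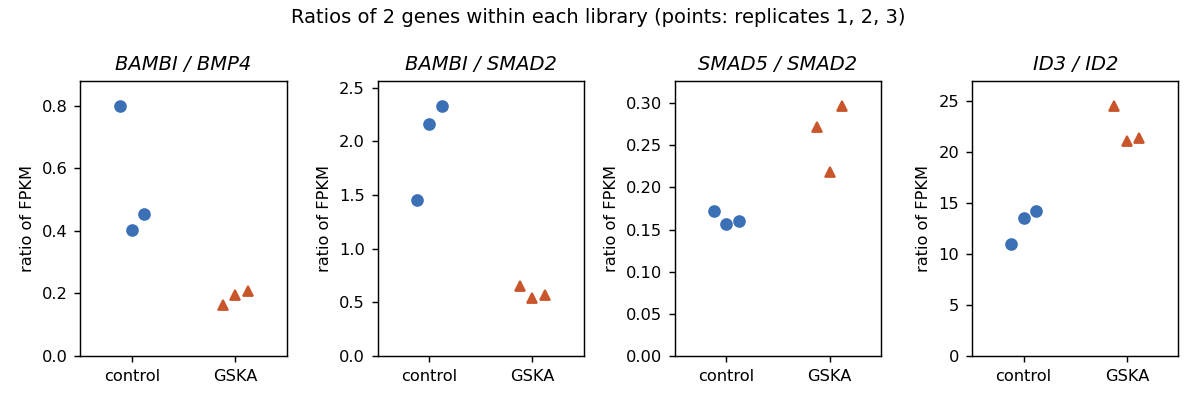
Ratios of FPKM within each library for BAMBI to BMP4, BAMBI to SMAD2, SMAD5 to SMAD2 and ID3 to ID2, on linear axes from 0 with a point for each library. BAMBI relative to SMAD2 lies at 1.46 to 2.33 in control and 0.538 to 0.651 in GSKA libraries, and ID3 relative to ID2 at 11.0 to 14.2 and 21.1 to 24.5.

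In a wider list of 101 further pathway genes, 90 were found in the files, 56 were tested and none was called in either direction by limma. Calls over all tested genes came to 0.225% higher and 0.131% lower, so none among 56 lies near those shares. At an unadjusted p under 0.05 there were 7 higher (12.5%) and 4 lower (7.14%), against 9.4% and 4.03% of all tested genes, and the median log2 difference was 0.06. Among the lower genes, TWSG1, an extracellular BMP-binding protein, had FPKM of 12.5, 5.51 and 10.4 in control against 2.83, 2.66 and 2.09 in GSKA libraries, with no overlap between the groups and a log2 difference of -1.51 (adjusted p = 0.119 by limma). ID4, another ID gene, had 10.7, 16.0 and 13.4 against 8.30, 6.43 and 7.19 (-0.78, adjusted p = 0.296), and CCN2, a matricellular target of TGF-beta, had a log2 difference of -1.16 (adjusted p = 0.329).

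The 7 higher genes included 5 of the 26 tested cytoplasmic regulators (19.2%, against 9.4% of all tested genes), and none of the 5 was called. They were UCHL5, DAB2, NEDD4L, USP4 and STUB1, and the largest difference was that of UCHL5. This class was not singled out in advance. The shares higher in the other classes of the list ran from 0% to 50% (the latter of 2 tested ligands), with 10% for the nuclear partners. UCHL5, a deubiquitinase that can act on TGFBR1, had a log2 difference of 1.42 (adjusted p = 0.0922 by limma). E2F5, a SMAD partner in repression, had 1.21 (adjusted p = 0.152), and GDF9, an oocyte ligand of the family, had 0.57 (adjusted p = 0.310). GDF9 stood at 96.7 ± 24.8 in control and 141 ± 6.77 in GSKA libraries (SD, n = 3 each). BMP15, its oocyte partner, was more abundant than any of the 8 member ligands, at 681 ± 194 and 718 ± 111.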

How the data were processed

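The 6 libraries of 8-cell bovine embryos were 3 control and 3 GSKA libraries. The authors deposited FPKM values per gene and library, for which the submitters' processing notes name StringTie 1.3.4d, HISAT2 2.0.4 and cutadapt 1.9 but no genome build. The files hold only genes above 0 in at least 1 library. The authors' deposited table of differentially expressed genes, made with edgeR, holds their folds, p-values and q-values and was not used. No counts are held, so the depth is unknown and no count test was run.

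Members were matched by symbol. limma 3.58.1 (R 4.3.3) was fitted to log2(FPKM + 1) with a single group term, a variance trend and Benjamini-Hochberg adjustment over the 10654 genes at 1 FPKM or more in at least 3 of 6 libraries. The test was tested on simulated data first. Values in every library were to be given for members with an unadjusted p under 0.05, members at a mean of 1 FPKM or more whose groups did not overlap, and the highest member of each role. Genes of the wider list were named at an unadjusted p under 0.05, up to 12, except for a result not reported here. Per-library values of other members, BMP15, the genes near BAMBI and DCN were added after their values were seen. The members and lists were chosen with earlier results of these data known. The alternatives changed the filter, the pseudocount (0.1), the scaling, the variance trend and the replicate block, and left out each library in turn.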

Additional observations from a re-analysis of the deposited data

How the results depend on the processing

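Of the 21 tested members, 12 kept their direction under every alternative in which they could be tested and 9 reversed in at least 1, and BAMBI was the only member called under any. Its log2 difference of -1.62 kept that value without the filter on low values, without the variance trend and with the replicate block, but was no longer called there. In these 3 settings 0 members were called lower by limma and 1 lay lower at an unadjusted p under 0.05. The numbers of all genes called higher and lower, 24 and 14, became 0 and 0 without the filter (1106 and 558 at an unadjusted p under 0.05), 3 and 4 without the trend and 7 and 8 with a pseudocount of 0.1. They became 7 higher with scaling to a common median and 14 higher with quantile normalization. Same-numbered libraries of the groups had correlations of their deviations of -0.08, 0.14 and -0.12, and differently numbered ones of -0.12 to 0.18. With 3 libraries per group, these values cannot decide whether the numbers pair the libraries. With the replicate block 12 genes were called higher and 7 lower, and BAMBI had an adjusted p of 0.0583 by limma. Leaving out 1 library gave 1 to 24 genes higher, 3 to 10 lower and 0 to 1 members lower, BAMBI at -1.75 to -1.52 and a median over the members of -0.035 to 0.11. SMAD2 turned to -0.037 and -0.074 under median scaling and quantile normalization. With 1 library left out, SMAD2 ranged from -0.078 to 0.14, ACVR1 from -0.47 to 0.24, ACVR2B from -0.52 to 0.45, BMP4 from -0.61 to 0.058, BMPR2 from -0.13 to 0.31, SMAD1 from -0.11 to 0.70, SMAD3 from -0.67 to 0.047, SMURF2 from -0.23 to 0.12 and TGFB2 from -0.77 to 0.020. The cause of these changes was not tested. Depth is unknown, so for members below 1 FPKM a listed 0 cannot be told from a low level.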

Other observations

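Of the 83 genes that the files annotate to the KEGG term for TGF-beta signaling, 50 are not among the 36 members, and 28 of those 50 were tested. One of the 28, DCN, was called higher by limma and 0 were called lower, where calls over the 10654 genes came to 0.225% and 0.131%. Before adjustment, 1 of the 28 lay higher (3.57%) and 2 lay lower (7.14%) with p under 0.05 by limma. The matching shares of the 10654 genes were 9.4% and 4.03%. DCN encodes decorin, a secreted proteoglycan that can bind TGF-beta. It was listed at 0 in control replicates 1 and 2, stood at 1.18 FPKM in control replicate 3 and at 5.49, 4.23 and 6.26 in the GSKA libraries. The groups did not overlap, and the log2 difference was 2.27 (SE 0.423, adjusted p = 0.0452 by limma). DCN passed the filter on low values only through the GSKA libraries, the group where it was high. It was also picked out after its values were seen, so the call is a description and no independent support. The call held in 2 of the 14 alternatives in which DCN was tested, with adjusted p-values from 0.0421 to 0.291. Decorin is also a product of stromal and follicular cells, and the summed cumulus markers were higher in every GSKA library (70.1 to 81.4) than in any control library (39.9 to 56.3). Their part in the DCN result was not tested.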
